A study of Rattus norvegicus with 6 samples.

Results

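miR-122, miR-192 and miR-194 are microRNAs that liver cells make in large amounts. They were followed here as rno-miR-122-5p, rno-miR-192-5p and rno-miR-194-5p, found by exact name among the 758 rat microRNAs of an Agilent single-colour array, and all 3 names were present. The samples were plasma of 3 untreated male Sprague-Dawley rats aged 10 weeks, with blood from the abdominal aorta as the arterial and blood from the postcava as the venous sample of each rat, and 1 array was run for each of the 6 plasma samples. Pairs of samples from the same rat were compared, so that n is 3 rats throughout. No treatment and no engineered allele is named for any animal, and the plasma was spun and then filtered through a 0.22-μm membrane before RNA extraction.

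A microRNA is cut from a hairpin RNA, and the arm that is kept guides silencing of messenger RNAs whose 3' ends pair with its seed, bases 2 to 8. miR-122 is the dominant microRNA of hepatocytes, where it takes part in the control of lipid metabolism, and its level in plasma is used as a marker of liver injury. miR-192 and miR-194 come from shared transcripts, and besides liver they are abundant in intestinal epithelium and kidney. miR-215 is a close relative of miR-192 that is encoded next to the second copy of miR-194.

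The mature sequences below are shown because they set which of these microRNAs have a seed in common and which probes could bind the same RNA. They are taken from RefSeq (GRCr8 assembly), are written 5′ to 3′, and have the seed in capitals.
rno-miR-122-5p: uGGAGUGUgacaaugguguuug
rno-miR-192-5p: cUGACCUAugaauugacagcc
rno-miR-215: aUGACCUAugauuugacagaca
rno-miR-194-5p: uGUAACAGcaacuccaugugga

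All 3 names matched that table. Among its 693 mature rat microRNAs, the seeds of miR-122-5p and miR-194-5p occurred in no other entry, and that of miR-192-5p was shared with miR-215 alone. From the 5′ end, miR-192-5p and miR-215 had the same base at 18 of 21 positions, so their probes may bind both RNAs. How far the array tells them apart was not tested. On GRCr8, Mir122 makes miR-122-5p from chr18:61028831-61028852 (+ strand), in a hairpin that lies within LOC134482951, annotated as a transcribed pseudogene, and overlaps the annotated gene Mir3591, next to the protein-coding gene Alpk2. Mir192 holds miR-192-5p at chr1:212994232-212994252 (+), between Atg2a and Ehd1. miR-194-5p has 2 genes with the same mature sequence. Mir194-2, at chr1:212994038-212994059 (+) for the mature part, ends 100 bases before the Mir192 hairpin. Mir194-1, at chr13:99382730-99382751 (+), ends 191 bases before the hairpin of Mir215 inside Iars2. The array reads the mature RNA and cannot say which of the 2 genes it came from.

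Each microRNA was read by 2 probes with 8 spots each on every array. Values are intensities, the brightness of a spot after its local background was subtracted. Because probes bind with different strength, the brightness of 1 microRNA is not set against that of another, and only changes between arrays are compared. Feature Extraction, the program that reads the scans, called between 137 and 175 of the 758 microRNAs detected on an array, and 126 on all 6. No spot was saturated. Arrays differed in overall brightness. The median log2 difference, arterial minus venous, over the 126 microRNAs was 0.63 in rat 1, -0.29 in rat 2 and 0.84 in rat 3 before normalization. Control features of fruit fly sequence differed too. As arterial minus venous, dmr_285 differed by 0.02, 1.28 and 1.38 in log2 in rats 1, 2 and 3 and dmr_31a by -0.03, 1.15 and 1.16. The pair dmr_3 and dmr_6 differed by -0.50 and -0.49 in rat 1, 0.32 and 0.29 in rat 2, and -0.07 and -0.07 in rat 3. Both arrays of a rat were on the same slide, rats 1 and 2 on the first slide and rat 3 on the other. Rat 3 and its slide cannot be told apart, while rats 1 and 2 shared a slide, and slide does not separate arterial from venous plasma.

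miR-122-5p was detected on all 6 arrays, with each of its 16 spots well above background. Its intensity was 67.7 in arterial and 47.0 in venous plasma of rat 1. In rat 2 it was 635.2 in arterial and 308.0 in venous plasma. In rat 3 it was 109.2 in arterial and 53.4 in venous plasma. Both samples of rat 2 were thus brighter than all 4 samples of the other rats, while the arterial range, 67.7 to 635.2, and the venous range, 47.0 to 308.0, overlapped widely. Within an array, the spots of a probe that were not marked as outliers varied by 2.97 to 8.29% (coefficient of variation, mean of the 2 probes). Of the 16 spots on an array, 0 to 4 were marked as outliers and left out, which can lower this variation. In plasma, release from more cells and more RNA released per cell cannot be told apart.

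**Figure D1:**
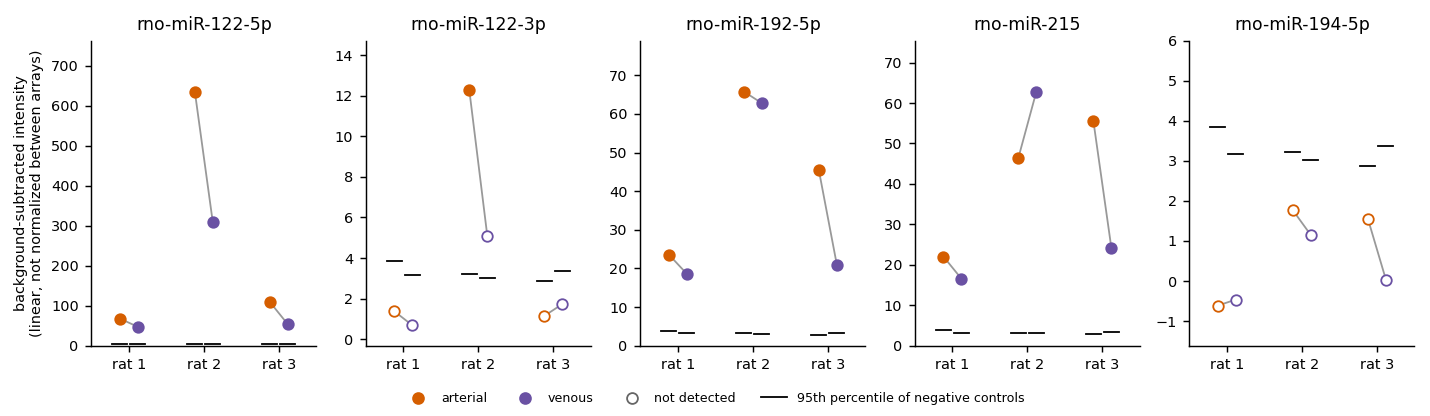
Background-subtracted intensity (linear, not normalized between arrays, a separate axis for each microRNA) of miR-122-5p, its other arm miR-122-3p, miR-192-5p, miR-215 and miR-194-5p in the arterial (orange) and venous (violet) plasma of 3 rats. Grey lines join the 2 samples of a rat, open points were not called detected, and black bars give the 95th percentile of the negative control spots. miR-122-5p of rat 2 stands above the other rats at 635.2 and 308.0, and miR-194-5p stays under the bars on every array.

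The spread of miR-122-5p between rats exceeded its spread between the 2 vessels. After quantile normalization, which gives all arrays the same distribution, the mean of the 2 log2 values of a rat was 5.89 in rat 1, 8.44 in rat 2 and 7.03 in rat 3. This range of 2.55 was the widest among the 126 microRNAs detected on every array, for which the median range was 0.71. The mean absolute difference between artery and vein of a rat was 0.58, against a median of 0.32 over the 126. Without normalization the rat means ranged over 2.97 in log2, or 7.84-fold. Under 11 of 14 alternatives of scaling, summary or floor the range of miR-122-5p was again the widest. It ranked between 3 and 8 in the others, with rank 8 where arrays were scaled by dmr_285 and dmr_31a. Alternatives that changed only the floor could not move this range, though they are counted among the 14. With 3 rats the range is a description of these animals and carries no test. By arterial plasma alone miR-122-5p also ranked 1 in range (3.26), and by venous plasma alone it ranked 5 (1.83).

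miR-192-5p and miR-215 ranged less between rats. The rat means of miR-192-5p were 4.53, 5.52 and 5.55 in rats 1, 2 and 3, a range of 1.03 that ranked 33 of 126. Under the 14 alternatives its rank lay between 23 and 68. Its range was 0.37 with normexp background correction, 0.59 in the authors' table, 1.59 when scaled by dmr_3 and dmr_6 and 1.62 without normalization. Normexp added an offset of 50 to each intensity, and the authors' table keeps the background. Either narrows the log2 range of a weak signal, so 0.37 and 0.59 are not set against the other ranges. The rat means of miR-215 were 4.36, 5.26 and 5.76, a range of 1.39 that ranked 19. For both the lowest rat was rat 1, as for miR-122-5p, but neither set rat 2 apart from rat 3 by as much as miR-122-5p did. Among the 126 microRNAs, 105 ranged more between rats than they differed on average within a rat, so that this order is the common one in these samples.

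**Figure D2:**
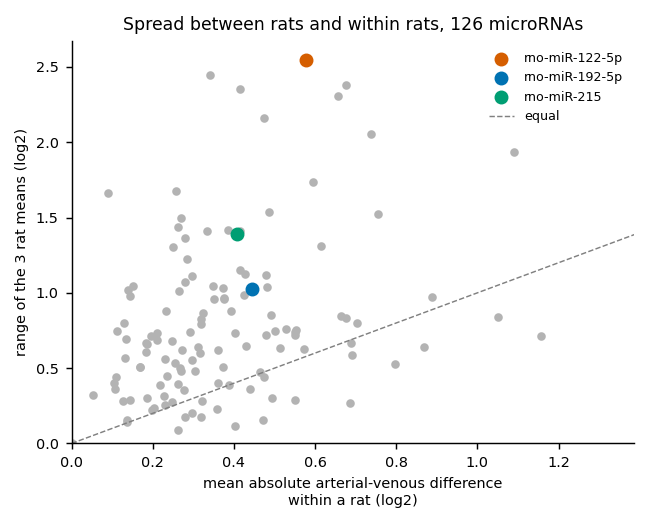
Range of the 3 rat means (vertical axis, log2 of quantile-normalized intensity) against the mean absolute difference between arterial and venous plasma of a rat (horizontal axis, log2) for each of the 126 microRNAs detected on all arrays (grey points). miR-122-5p lies at the top with a range of 2.55 and a within-rat difference of 0.58, and miR-192-5p and miR-215 lie at ranges of 1.03 and 1.39. Points above the dashed line varied more between rats than within them.

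Arterial and venous plasma were compared to learn whether the vessel sampled changes the level of these microRNAs. For miR-122-5p the mean arterial level, as quantile-normalized log2 intensity, was 7.34 ± 1.64 (SD, n = 3). The mean venous level was 6.90 ± 0.91 (SD, n = 3). The arterial minus venous difference was -0.21 in rat 1, 1.23 in rat 2 and 0.30 in rat 3, so it did not run the same way in all rats. The mean was 0.44 with a standard error of 0.401 (adjusted p = 1 from limma with rat as a block, 95% interval -1.14 to 2.02). By the exact permutation test within rats the two-sided p was 0.5, where 0.25 is the smallest that 3 pairs allow. Rat 2 carried most of the mean, which was 0.05 without it. Over all 758 microRNAs 6 (0.792%) had an unadjusted limma p of 0.025 or less, the study's cutoff, and neither miR-122-5p nor miR-192-5p was among them. At an adjusted p of 0.05 limma called 0 microRNAs, and 12 had an unadjusted p under 0.05.

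How arrays were scaled set the size of the miR-122-5p difference and its sign in single rats, while the mean stayed above 0. In the intensities as deposited, with no normalization between arrays, miR-122-5p was brighter in arterial plasma by 1.44-fold in rat 1, 2.06-fold in rat 2 and 2.05-fold in rat 3. The mean log2 difference was 0.87 (standard error 0.161, adjusted p = 1 from limma), and 24 of the 126 microRNAs (19%) were likewise brighter in the arterial sample of all 3 rats. In rats 1 and 3 the arterial array as a whole differed by 0.63 and 0.84, and in rat 2 by -0.29, where miR-122-5p differed by 1.04. Scaled by dmr_3 and dmr_6, miR-122-5p stayed higher in arterial plasma of all rats, by 1.02, 0.74 and 1.10, and was past the study's cutoff (limma p = 0.00804, adjusted p = 1, smallest exact permutation p for 3 pairs 0.25). Scaled by dmr_285 and dmr_31a, a choice made after seeing that they were brighter on the arterial arrays of rats 2 and 3, the differences were 0.53, -0.17 and -0.24. After quantile normalization 12 of the 126 (9.52%) were higher in arterial plasma of all rats, and neither miR-122-5p nor miR-192-5p was one of them. What part the array-wide brightness had in these differences was not tested.

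The 2 probes of miR-122-5p gave the same picture. Before normalization the first differed between artery and vein by 0.56, 1.01 and 0.96 in log2 in rats 1, 2 and 3, and the second by 0.51, 1.07 and 1.08. Since the probes are on the same array they show the error of the spots and not that of the plasma sample.

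**Figure D3:**
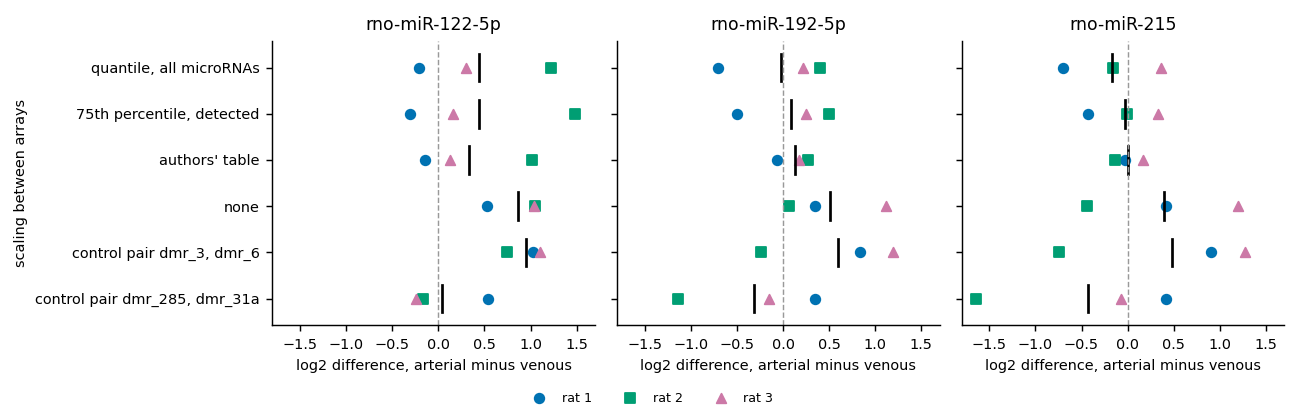
Log2 difference, arterial minus venous (horizontal axis), of miR-122-5p, miR-192-5p and miR-215 in each rat (points) and on average (black bars), with the arrays scaled in 6 ways (vertical axis). The mean for miR-122-5p lies between 0.04 and 0.95 over these scalings, and that for miR-192-5p between -0.31 and 0.60.

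miR-192-5p was detected on all arrays as well, with all 16 spots well above background. Its intensity was 23.6 in arterial and 18.6 in venous plasma of rat 1. In rat 2 it was 65.8 in arterial and 62.8 in venous plasma. In rat 3 it was 45.4 in arterial and 20.9 in venous plasma. The arterial sample was the brighter in each rat before normalization, and the 2 groups overlapped. After quantile normalization the mean arterial level was 5.18 ± 0.88 (SD, n = 3). The mean venous level was 5.21 ± 0.30 (SD, n = 3). The differences were -0.71, 0.41 and 0.22 in rats 1, 2 and 3, with a mean of -0.03 (standard error 0.328, adjusted p = 1 from limma, 95% interval -1.32 to 1.27; exact permutation p = 1). Fitted on the 126 microRNAs detected on all arrays alone, the 95% interval was -0.71 to 0.66. Without rat 1 the mean was 0.31. The 2 probes differed before normalization by 0.21, 0.02 and 1.08 and by 0.44, 0.10 and 1.14 in rats 1, 2 and 3.

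miR-122-5p and miR-192-5p can be compared without any scaling between arrays, since the brightness of an array cancels in their ratio. On each array the intensity of miR-122-5p was divided by that of miR-192-5p. This ratio was 2.87 in arterial and 2.53 in venous plasma of rat 1, and 2.40 in arterial and 2.55 in venous plasma of rat 3. In rat 2 it was 9.66 in arterial and 4.91 in venous plasma. So the 4 samples of rats 1 and 3 stayed close together, and the 2 samples of rat 2 stood above them and apart from each other. The ratio itself depends on the probes and does not give relative amounts. The arterial minus venous difference of its log2 was 0.18, 0.98 and -0.09 in rats 1, 2 and 3 (mean 0.36 ± 0.55 SD, exact two-sided permutation p = 0.5). After quantile normalization the same difference between the members was 0.50, 0.82 and 0.08 (mean 0.47 ± 0.37 SD, exact p = 0.25). This was 1 of 3 planned pairs, and the other 2 could not be computed because miR-194-5p was not detected, so the p-values stand alone and cannot fall below 0.25.

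miR-215, the seed relative of miR-192-5p, had an intensity of 22.0 in arterial and 16.6 in venous plasma of rat 1. In rat 2 it was 46.5 in arterial and 62.8 in venous plasma. In rat 3 it was 55.6 in arterial and 24.2 in venous plasma. Unlike for miR-192-5p, the venous sample of rat 2 was the brighter. Divided by miR-215 on the same array, miR-192-5p was 1.07, 1.42 and 0.82 in arterial and 1.12, 1.00 and 0.87 in venous plasma of rats 1, 2 and 3. The ratio lay between 0.82 and 1.42 and was furthest apart between the vessels of rat 2. After quantile normalization miR-215 differed by -0.70, -0.16 and 0.37, with a mean of -0.16 (standard error 0.294, adjusted p = 1 from limma).

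miR-194-5p was detected on no array, although both of its genes lie beside those of miR-192-5p and miR-215. Its intensity was -0.61, 1.76 and 1.55 in arterial and -0.46, 1.15 and 0.04 in venous plasma of rats 1, 2 and 3. On each array the 95th percentile of the negative control spots, which are made to bind no sample RNA, lay between 2.87 and 3.85, so all 6 values were under it. Each value is an average of 13 to 16 spots, while that percentile is one of single spots. The average of a weak signal could therefore lie under it as well. Among the 88 spots that were not marked as outliers, 10 (11.4%) lay above that percentile, 3 each in arterial plasma of rats 2 and 3 and 4 in venous plasma of rat 2. For miR-192-5p and miR-122-5p all spots did. By definition, 95% of the negative control spots lie at or under that percentile. Feature Extraction called 8 of all 16 miR-194-5p spots significantly above background in arterial and 7 in venous plasma of rat 2. On the other arrays it called 1 to 4. Whether a weak signal was present in rat 2 was not tested. No fold between vessels is given for miR-194-5p, since Feature Extraction called it detected on no array.

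The brightest spots of miR-194-5p were ones that the scan software had set aside. In venous plasma of rat 3, 3 of its 16 spots were well above background, at 11.3, 16.1 and 70.7, and Feature Extraction marked these 3 as outliers. With them left out the highest spot there was 2.42. In the arterial plasma of rats 2 and 3 the first probe averaged 3.64 and 3.22 and the second -0.11 and -0.12. The first was there above the negative controls' 95th percentile of the same arrays, 3.22 and 2.87. It was also the higher in arterial plasma of rat 1 (0.15 against -1.38) and venous plasma of rat 3 (0.65 against -0.58). In venous plasma the first averaged 0.94 and the second 1.35 in rat 2, and -0.48 and -0.44 in rat 1, so that the probes did not keep 1 order.

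**Figure D4:**
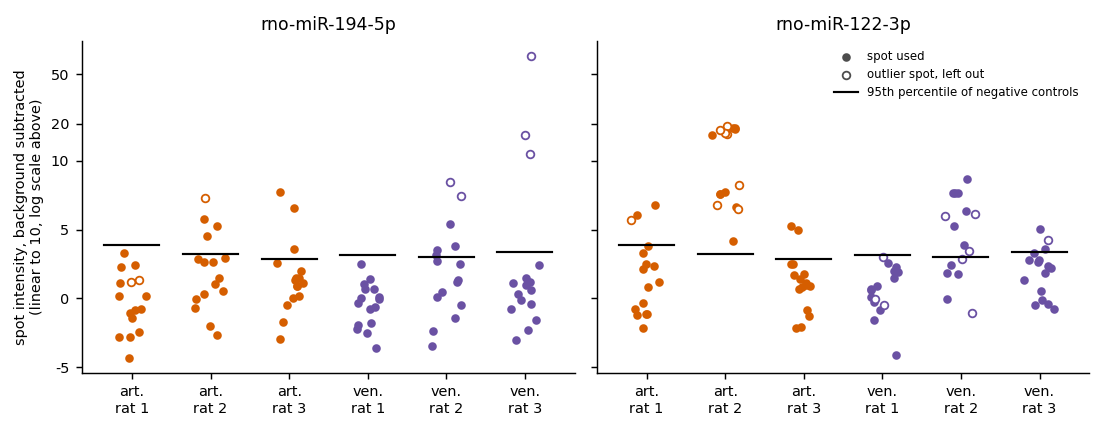
Intensity of single spots of miR-194-5p and miR-122-3p (vertical axis, background subtracted, linear to 10 and logarithmic above) on the 6 arrays (orange arterial, violet venous, 16 spots each). Open points are outlier spots that were left out, and black bars are the 95th percentile of the negative control spots. The 3 highest spots of miR-194-5p are outliers in venous plasma of rat 3, at up to 70.7, and miR-122-3p rises above the bar with all used spots in arterial plasma of rat 2.

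The other arms of the hairpins were at or near background in most samples. miR-122-3p, the arm of the miR-122 hairpin that is mostly discarded, was called detected on 1 array, the arterial plasma of rat 2, where miR-122-5p was brightest. Its intensity was 12.3 there and 5.08 in venous plasma of rat 2, and between 0.68 and 1.73 in the other 4 samples. All 9 spots used in the arterial sample of rat 2 were above the negative controls' 95th percentile, as were 7 of 11 in its venous sample. In arterial plasma of rat 2, however, 7 of the 16 spots were marked as outliers and left out. miR-192-3p and miR-194-3p were detected on no array, with intensities from -1.69 to -0.18 and from -0.73 to 2.87. Thus 2 of the 4 arms and relatives in that list, miR-192-3p and miR-194-3p, were never detected. None of the 4 passed the study's cutoff between artery and vein, beside 6 of 758 (0.792%) over the whole array.

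Of 9 other microRNAs known from liver, 3 were detected on all arrays and 4 on none, among the latter rno-miR-148a-3p and rno-miR-802-5p. Over the whole array, 126 of 758 microRNAs were detected on all arrays and 557 on none. None of the 9 was past the study's cutoff, which 6 of all 758 (0.792%) passed. At that share a list of 9 would often hold none. rno-miR-22-3p, which is abundant in liver but made in many tissues, had an intensity of 147.1, 274.4 and 151.5 in arterial and 95.3, 244.2 and 65.3 in venous plasma of rats 1, 2 and 3, and differed by -0.15, 0.51 and 0.29 after normalization. For rno-miR-365-3p the normalized differences were 0.02, 0.35 and 0.04. For rno-miR-455-3p they were -0.31, -0.04 and 0.04. Over these 3 the median difference was 0.14 (0.0326 without rat 2, and -0.22 when scaled by dmr_285 and dmr_31a), beside -0.004 over the 126 microRNAs detected on all arrays.

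Blood cell microRNAs were detected in every sample. All 6 of the erythrocyte list (rno-miR-451-5p, rno-miR-144-3p, rno-miR-486, rno-miR-16-5p, rno-miR-92a-3p and rno-miR-25-3p) were detected on all arrays. Their median normalized log2 level lay between 7.49 and 8.30 in arterial and between 8.13 and 8.42 in venous plasma, and their median difference was -0.25, -0.44 and 0.25 in rats 1, 2 and 3, against 0.49, -0.71 and 1.10 with no normalization. In rat 2 they were thus lower in arterial plasma, where miR-122-5p and miR-192-5p were higher by 1.23 and 0.41. In rats 1 and 3 their median had the same sign as both. For the 6 of 8 platelet and leukocyte microRNAs detected on all arrays (rno-miR-223-3p, rno-miR-142-3p, rno-miR-142-5p, rno-miR-150-5p, rno-miR-146a-5p and rno-miR-126a-3p), the median difference was -0.19, -0.20 and 0.45. Of the 8 epithelial microRNAs, which include the miR-200 family of gut and kidney epithelium, none was detected on all arrays and 5 on none, beside 557 of 758 on none over the whole array. Of the 6 muscle microRNAs only rno-miR-133b-3p was detected on all, with differences of 0.12, 0.12 and -0.03. No microRNA of these 4 lists passed the study's cutoff, beside 6 of 758 (0.792%) over the whole array. At that share lists of this size would often hold none. What part blood cell RNA had in the members' values was not tested.

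**Figure D5:**
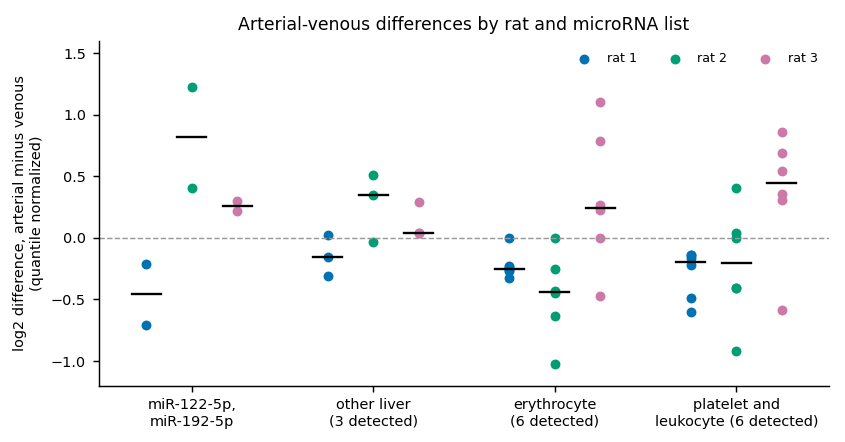
Log2 difference, arterial minus venous (vertical axis, quantile-normalized intensity), in rats 1, 2 and 3 (colours) for miR-122-5p and miR-192-5p and for the microRNAs of 3 lists that were detected on all arrays. Points are microRNAs and black bars their median. In rat 2 the erythrocyte median is -0.44 while both members are above 0, at 1.23 and 0.41.

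The microRNAs whose profile over the 6 arrays was nearest to each member were found by the root mean square distance between log2 profiles, after the mean of each was subtracted. For miR-122-5p they were rno-let-7f-5p, rno-let-7a-5p and rno-let-7c-5p, of the let-7 family that most cell types express, at distances of 0.63, 0.66 and 0.70, against a median of 1.14 over the 125 others. rno-let-7f-5p, the nearest, differed between artery and vein by -0.27, 0.41 and 0.79 in rats 1, 2 and 3. For miR-192-5p they were rno-miR-24-3p, rno-miR-455-3p and rno-let-7d-5p at 0.21 each (median 0.61). This distance grows with the range of a profile, so that the distances of the members are not set against each other. rno-miR-455-3p is also on the liver list. The 6 points of a profile come from 3 rats and share their normalization, so that these distances describe the samples only.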

How the data were processed

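Plasma RNA of 6 samples (3 rats, arterial and venous) was labelled with Cy3 and hybridized to 1 array each. The authors deposited spot intensities from Agilent Feature Extraction (version 11.0.1.1 in the submitters' processing notes, 10.7.3.1 in the files), with local background subtracted and no scaling between arrays. They also deposited a linear intensity table, quantile normalized in GeneSpring and without background subtraction, used here as an alternative. Samples were grouped by their labels and paired by the replicate number in their titles. The study matched arterial and venous samples of the same rats, so this number was read as the rat number. Within rats, deviations from the group means correlated at 0.80, 0.69 and 0.64.

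Control spots and outlier spots (8.72 to 10.4% of an array) were left out, spots of a probe and then probes of a microRNA were averaged, arrays were quantile normalized over 758 microRNAs, a floor of 1 was set, and log2 was taken. limma 3.58.1 (R 4.3.3; rat as block, two-sided) was fitted over all 758 with Benjamini-Hochberg adjustment, at the study's unadjusted cutoff of 0.025 and at an adjusted 0.05. Because most microRNAs were at the floor, its prior held 0.198 degrees of freedom. The limma fit was tested on simulated data with known changes. The simulation began from normalized log2 values, so the steps before the fit were not tested. Each simulated variance was averaged with a median one, so variances were more alike than in the data. This can favour the fit. Of 34 microRNAs changed by 1 in log2, the fit over 758 found 14 at the cutoff and 1 at an adjusted 0.05. It also called 20 of 279 unchanged ones at the cutoff. A fit on the 126 detected on all arrays found 11 of 14 at the cutoff and 10 adjusted. It called 1 of 83 unchanged ones at the cutoff. With 3 rats, the number of arrays limits the precision. Other alternatives changed scaling, spots, floor, filter, test, block and rats. The planned differences with miR-194-5p were not computed, as it was not detected. Named besides the members are their other arms and seed relative, list microRNAs detected on all arrays and the 3 nearest profiles of each member. rno-miR-148a-3p and rno-miR-802-5p are named outside this rule, after their values were seen. The members and lists were chosen with earlier results of these data known. Sequences come from RefSeq (GRCr8), while the array design cites another build, and no coordinate was taken from the array files.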

Additional observations from a re-analysis of the deposited data

How the results depend on the processing

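With 3 pairs of arrays and miR-194-5p not called detected, small changes cannot be resolved. The log2 difference of miR-122-5p stayed above 0 under all 23 alternatives and passed the study's cutoff under 1, scaling by dmr_3 and dmr_6 (0.95). Alternatives that changed only the floor, filter, test or block could not move this mean or that of miR-192-5p. They are counted among the 23 but do not bear on the sign. Without each rat in turn the miR-122-5p difference was 0.05 to 0.76, and with no replicate block (samples not paired by rat) 0.44. For miR-192-5p, -0.03 with rats paired, the sign turned under 10 of 23: the 75th percentile over all (0.0881) or detected microRNAs (0.0854), the authors' table (0.13), the brightest probe (0.0873), dmr_3 and dmr_6 (0.60), no normalization (0.51), normexp (0.0254), outlier spots kept (0.0880), quantile over detected microRNAs (0.00862), and without rat 1 (0.31, with -0.24 the lowest without 1 rat). The count past the cutoff and higher in arterial plasma, 4, became 8 with the authors' table, the brightest probe or normexp, 10 with a floor of 0.1, 0 with a floor of 4, 2 with the 75th percentile over all microRNAs, slide as block or the methods' t-test, 1 with dmr_285 and dmr_31a or total gene signal, and 8 to 19 without 1 rat. The venous count, 2, became 4 with the 75th percentile over detected microRNAs, the authors' table or outlier spots kept, 5 with normexp, 1 with dmr_285 and dmr_31a or no normalization, 0 with dmr_3 and dmr_6, quantile over detected microRNAs or a fit on microRNAs detected on all or at least 1 array, and 9 to 14 without 1 rat. At an adjusted 0.05, limma called 1 microRNA when fitted on those detected on at least 1 array. The liver list median, 0.14, was -0.22 with dmr_285 and dmr_31a, 0.69 with dmr_3 and dmr_6 and 0.60 unnormalized, and 0.0326 without rat 2 (0.0326 to 0.19 without 1 rat). It was 0.0534 with the authors' table, which keeps the background, and 0.0485 with normexp, which added an offset of 50. Either narrows log2 differences of weak signals. The erythrocyte median, -0.15, was 0.43 with dmr_3 and dmr_6, 0.34 unnormalized, -0.49 with dmr_285 and dmr_31a, -0.0820 and -0.0848 with the 75th percentile over all and detected microRNAs, -0.0968 without rat 1, -0.00353 without rat 2 and -0.35 without rat 3. The cause was not tested. Alternatives for miR-194-5p and its pairs gave no value, since it was detected on no array.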
